A study of Mus musculus with 69 samples.

Results

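H3K79me2 promoter peaks are regions of chromatin enriched for histone H3 dimethylated at lysine 79 whose midpoint lies 251 to 1000 bp from an annotated transcript start. They were taken from the authors' 2 annotated peak lists for mouse nucleus accumbens as the distinct intervals with at least 1 annotation line in the region class Promoter1k. The Standard list held 8592 such peaks among 117819 (7.29%) and the ELS list held 7505 among 106374 (7.06%), 16097 of 224193 in all. The class depends on the midpoint alone: peaks centred within 250 bp of a start are in a separate class (2811 and 2439 peaks), as are those centred 1 to 3 kb away (18130 and 16415) and those deeper in genes (105743 and 95374), and a peak with several transcripts can carry several classes.

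The chromatin came from punches of the nucleus accumbens of male mice reared under standard conditions (Standard) or exposed to early life stress (ELS). Chromatin immunoprecipitation with an H3K79me2 antibody was labelled for 9 Standard and 9 ELS samples, beside 9 and 10 input samples, and each rearing is represented by a single peak list, so no difference between the lists has a replicate check. RNA of the same region was sequenced in 4 groups of 8 libraries: Standard GFP and ELS GFP, both with a control vector, Standard Dot1l overexpression, and ELS Dot1l knockdown. All 4 groups thus carried a vector, whereas no vector is given for the chromatin samples, and age, strain, the start and end of the stress, and the promoter that drives each vector are not stated in the labels.

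DOT1L is the enzyme that places methyl groups on lysine 79 of histone H3, a residue on the surface of the nucleosome core rather than on the tail. It works with complexes that help RNA polymerase II to leave the promoter and elongate, and the mark is typically found over the first part of transcribed genes, downstream of the start. In the nucleus accumbens most neurons are medium spiny neurons, which are divided by their dopamine receptors into D1 and D2 types.

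The promoters of 6 genes show where the peaks lay relative to the start of transcription. Each sequence runs 5′ to 3′ on the gene's strand from 250 bases before to 50 bases after the start of the gene in RefSeq (GRCm38.p6), and capitals mark the bases inside the promoter peak. Vti1b (chr12:79172409-79172708, minus strand) has the Standard promoter peak with the highest fold enrichment, Sub1 (chr15:11995958-11996257, minus strand) is among the 5 highest of both lists, Mllt1 (chr17:56935339-56935638, minus strand) encodes a partner of DOT1L with a promoter peak in the ELS list, Csnk1g2 (chr10:80629406-80629705, plus strand) is wholly inside a broad ELS peak, and Tmem203 (chr2:25255189-25255488, plus strand) and Nop9 (chr14:55745443-55745742, plus strand) have a promoter peak that overlaps no peak of the other list, in the Standard and the ELS list respectively.
Vti1b: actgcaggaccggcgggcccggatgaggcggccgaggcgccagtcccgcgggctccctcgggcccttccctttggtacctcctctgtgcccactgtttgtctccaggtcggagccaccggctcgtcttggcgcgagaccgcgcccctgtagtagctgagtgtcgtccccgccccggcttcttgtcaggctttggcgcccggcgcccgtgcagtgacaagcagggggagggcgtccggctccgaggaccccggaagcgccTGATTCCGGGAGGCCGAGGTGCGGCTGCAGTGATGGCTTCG
Sub1: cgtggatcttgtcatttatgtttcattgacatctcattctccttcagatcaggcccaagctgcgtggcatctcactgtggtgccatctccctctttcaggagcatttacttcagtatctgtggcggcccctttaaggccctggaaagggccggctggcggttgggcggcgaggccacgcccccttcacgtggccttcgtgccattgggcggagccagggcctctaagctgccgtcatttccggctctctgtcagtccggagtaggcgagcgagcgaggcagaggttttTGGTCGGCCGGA
Mllt1: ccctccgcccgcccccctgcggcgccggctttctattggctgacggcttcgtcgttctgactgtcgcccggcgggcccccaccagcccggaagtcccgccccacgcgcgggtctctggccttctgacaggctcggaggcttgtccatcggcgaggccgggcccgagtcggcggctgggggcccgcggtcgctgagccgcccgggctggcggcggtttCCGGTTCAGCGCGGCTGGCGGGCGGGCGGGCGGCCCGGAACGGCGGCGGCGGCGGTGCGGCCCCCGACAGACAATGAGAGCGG
Csnk1g2: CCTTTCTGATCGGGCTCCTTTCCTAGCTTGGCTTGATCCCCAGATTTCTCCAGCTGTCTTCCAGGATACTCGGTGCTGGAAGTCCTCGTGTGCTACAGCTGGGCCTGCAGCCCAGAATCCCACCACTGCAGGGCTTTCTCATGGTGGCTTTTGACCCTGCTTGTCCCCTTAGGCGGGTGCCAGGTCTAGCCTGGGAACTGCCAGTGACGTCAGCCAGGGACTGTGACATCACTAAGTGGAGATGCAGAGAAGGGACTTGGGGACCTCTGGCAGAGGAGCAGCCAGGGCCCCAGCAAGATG
Tmem203: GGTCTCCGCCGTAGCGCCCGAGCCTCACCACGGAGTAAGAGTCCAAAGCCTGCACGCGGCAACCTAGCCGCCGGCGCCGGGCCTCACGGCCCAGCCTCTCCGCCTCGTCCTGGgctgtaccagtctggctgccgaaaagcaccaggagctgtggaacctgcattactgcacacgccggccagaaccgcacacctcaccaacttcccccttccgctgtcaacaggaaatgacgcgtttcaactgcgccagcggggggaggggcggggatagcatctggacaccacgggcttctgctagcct
Nop9: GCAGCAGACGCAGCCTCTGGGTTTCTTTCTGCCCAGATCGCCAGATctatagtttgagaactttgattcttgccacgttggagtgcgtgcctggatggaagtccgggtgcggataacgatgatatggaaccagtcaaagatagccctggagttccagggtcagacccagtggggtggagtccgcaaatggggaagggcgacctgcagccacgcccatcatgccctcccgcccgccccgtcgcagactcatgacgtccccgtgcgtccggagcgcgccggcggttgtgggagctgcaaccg
In Vti1b, Sub1 and Mllt1 the capitals stand at the 3′ end, so the peak begins close to the start and runs on into the gene, covering 41, 12 and 83 of the 300 bases. The peaks of Tmem203 and Nop9 lie on the upstream side and cover 113 and 46 bases. On either strand, the letters GGGCGG, the core of the GC box, occur in all of these windows except that of Csnk1g2, and CCAAT occurs in those of Sub1 and Mllt1. Csnk1g2 has TGACGTCA, the cyclic AMP response element, and none of the 6 windows has TATAAA. Of all 17492 promoter windows in the RefSeq table, 46.3% hold GGGCGG, 39.2% CCAAT, 13.3% TATAAA and 2.33% TGACGTCA, so 5 of 6 windows with a GC box is a description of these few sequences and not of the peaks at large.

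H3K79me2 promoter peaks were narrow in both lists and lay mostly downstream of the start. The median width was 492 bp in the Standard list (interquartile range 299 to 937) and 470 bp in the ELS list (292 to 840), against 514 and 479 bp for all other peaks of the same list. Peaks wider than 2 kb made up 7.74% of Standard and 5.45% of ELS promoter peaks, against 13.4% and 9.56% of the others. The authors' fold enrichment, which is the peak's own value and is compared within a list only, had a median of 1.99 (range 1.42 to 4.50) at Standard promoter peaks and 1.96 at the other Standard peaks. In the ELS list the median was 1.95 (range 1.32 to 3.82), against 1.92 at the others. Peaks next to the class limit resembled one another: the 915 Standard peaks centred 951 to 1000 bp from a start had a median width of 560 bp and a median fold of 1.99, and the 903 peaks at 1001 to 1050 bp had 547 bp and 1.99. The 857 Standard peaks at 251 to 300 bp had a median width of 383 bp, against 394 bp for the 767 at 201 to 250 bp.

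Of the Standard promoter peaks, 57.5% were downstream of every start that put them in the class, 30.1% upstream of every such start and 12.3% on both sides of different starts. The ELS list gave 59.2%, 28.02% and 12.8%. Of the peaks that were upstream only, 93.6% and 95.2% also lay in a gene body or downstream of another start, so few of them were upstream of every annotated start. Internal starts were common: among the 7389 Standard and 6480 ELS promoter peaks whose gene was matched to RefSeq by symbol, 43.8% and 45.8% were centred within 1 kb of the gene's own 5′ end, and 55.4% and 53.5% lay at another start inside the gene. Peaks at the gene's 5′ end had a median fold of 2.04 in the Standard list, against 1.95 at internal starts, and 1.99 against 1.92 in the ELS list.

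At gene 5′ ends the side of the start was clearer. Of 3672 Standard pairs of peak and gene, 74.9% were downstream, and 76.4% of 3377 ELS pairs were. Among the downstream pairs, 94.6% and 95.2% began after the start, and the 5′ edge of the peak was a median of 250 and 257 bp into the gene. These edge values follow in part from the class, which leaves out midpoints within 250 bp of a start and ends at 1000 bp. Coverage was highest 550 bp into the gene in the Standard list, where 53.8% of the peaks covered the position, and 500 bp in the ELS list, with 53.2%. Of the promoter peaks, 1596 (18.6%) in the Standard and 1198 (15.96%) in the ELS list covered an annotated start, in a class that leaves out peaks centred within 250 bp of one. Of all 17492 RefSeq windows of 300 bases, which include those of genes with no peak, 419 (2.40%) were overlapped by a Standard promoter peak and 275 (1.57%) by an ELS one, and peaks of any class overlapped 4.17% and 2.52%.

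**Figure D1:**
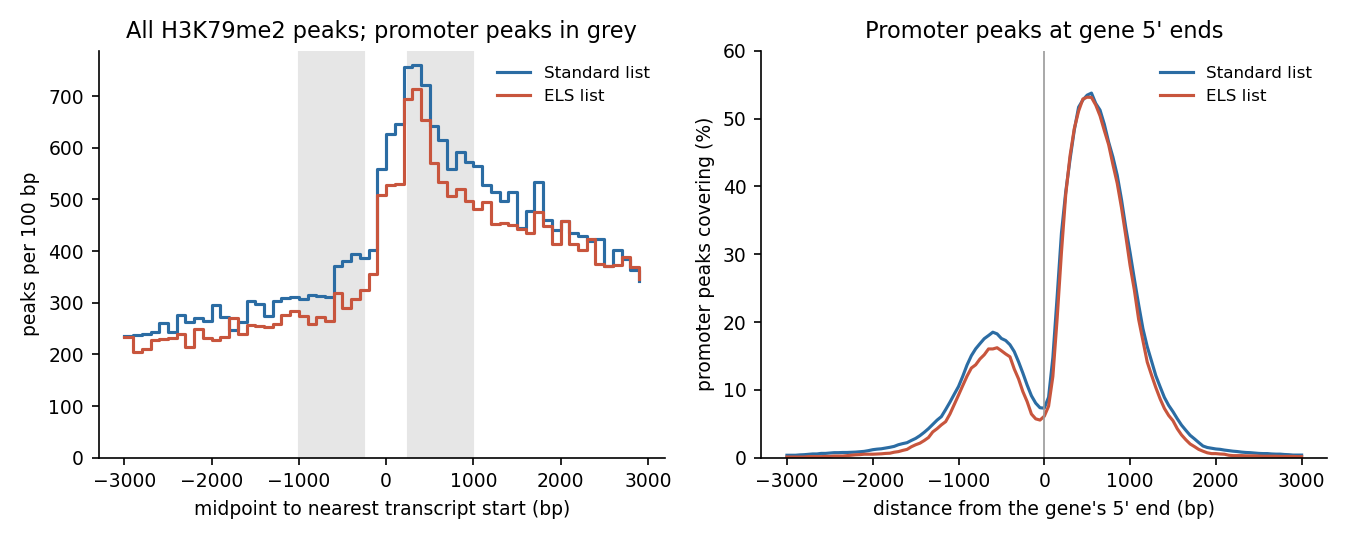
Left, number of H3K79me2 peaks per 100 bp of distance from the peak's midpoint to the nearest transcript start, negative values upstream, with the promoter peaks in the grey zones at 250 to 1000 bp. Right, percentage of the promoter peaks within 1 kb of a gene's 5′ end that cover each position. The curves are highest at 550 bp (Standard, 53.8%) and 500 bp (ELS, 53.2%). The dip at the start follows from the class, which leaves out midpoints within 250 bp. The distance of the maxima follows in part from the class, which ends at 1000 bp.

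Of the 5 promoter peaks with the highest fold enrichment in each list, those of Sfswap, Vti1b and Sub1 were in both sets. The Standard peak of Vti1b, a SNARE protein of the endosomal pathway, spanned chr12:79171313-79172449 (mm10) with a fold of 4.50. That of Sfswap, a splicing regulator, spanned chr5:129501288-129504405 with a fold of 4.14, and that of U2af2, which recognises the 3′ splice site, had a fold of 3.90. Sub1, a transcription coactivator, followed with 3.73, the same fold as at the locus RP23-152B12.1. In the ELS list Sfswap had the highest fold, 3.82 (chr5:129501337-129504106). The predicted gene Gm11960 followed with 3.34, then Vti1b with 3.29, Bace1, the beta-secretase, with 3.29 and Sub1 with 3.27. In RNA, Vti1b had 10.5, 39.5 and 55.5 CPM (read counts scaled to a library of 1 M counts, with TMM factors) in the lowest, median and highest of the 8 Standard GFP libraries, and Sfswap had 37.0, 51.7 and 219.

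The widest promoter peaks were much wider than the class as a whole. The Standard list reached 21202 bp at the predicted gene Gm29383 and 16725 bp at Prrc2c, whose protein takes part in translation and stress granules. The ELS list reached 12886 bp at Gm11693 and 10122 bp at Csnk1g2, a casein kinase. Every one of the 5 widest peaks of each list overlapped a peak of the other list. Genes with many annotated starts had several promoter peaks: Pan3, a subunit of a deadenylase, had 10 in the Standard and 12 in the ELS list, and Dnmt3a, a DNA methyltransferase, had 9 and 8. Foxp1, a transcription factor of medium spiny neurons, had 5 and 8.

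Promoter peaks of the ELS list were mostly inside the Standard list, and the reverse was less so. Of the ELS promoter peaks, 6961 (92.8%, Wilson 95% interval 92.1 to 93.3, which covers counting error only) overlapped some peak of the Standard list by at least 1 bp. Of the Standard promoter peaks, 5419 (63.1%, 62.0 to 64.1) overlapped some peak of the ELS list. The other peaks gave nearly the same shares, 90.6% and 62.6%, so this pattern was not particular to promoters. Many promoter peaks carried other classes too: 52.2% of the ELS and 54.0% of the Standard ones also had a gene-body line. The 1607 ELS and 1720 Standard peaks with lines of the promoter class only overlapped the other list at 95.9% and 70.3%. The Standard list held more peaks and covered more sequence in all, 126 against 92.6 Mb, and its promoter peaks covered 7.26 against 5.50 Mb.

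Which promoter peaks were in both lists went with their width and fold. In the Standard list, 26.0% of the narrowest quartile (178 to 299 bp) overlapped an ELS peak and 97.6% of the widest quartile (937 bp or more) did. Quartiles by fold gave 28.4% and 97.6%. In the ELS list the shares went from 80.2% to 100% by width and from 81.5% to 99.8% by fold. The 3173 Standard promoter peaks without an ELS overlap had a median width of 299 bp and a median fold of 1.82, and the 544 ELS peaks without a Standard overlap had 252 bp and 1.76. None of either set was wider than 2 kb.

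**Figure D2:**
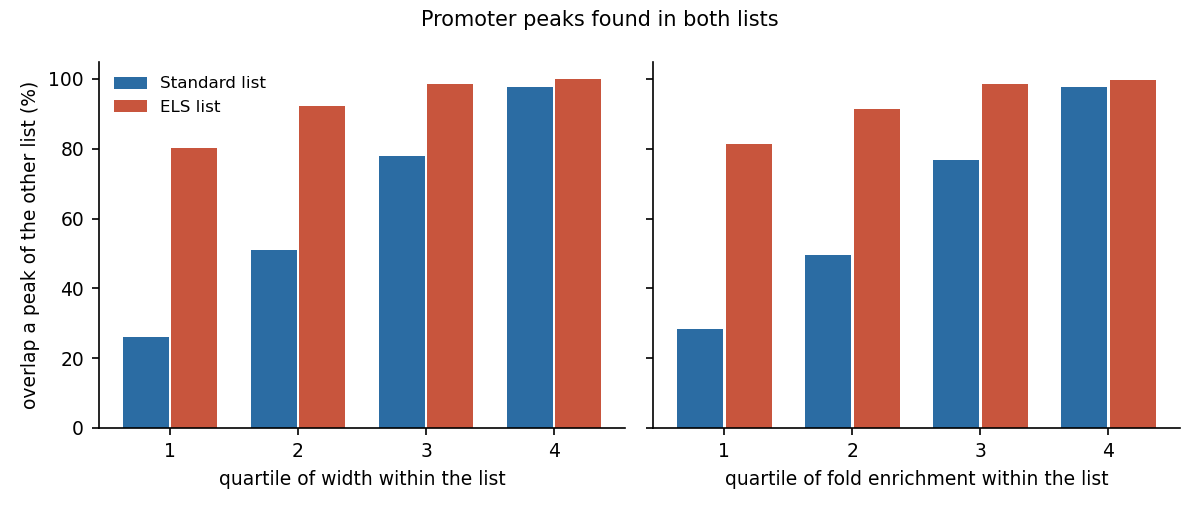
Percentage of promoter peaks that overlap any peak of the other list by at least 1 bp, by quartile of width (left) and of the authors' fold enrichment (right) within each list. Bars rise from 26.0% to 97.6% by width in the Standard list and from 80.2% to 100% in the ELS list.

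A few peaks with high fold stood in 1 list alone. The highest was at Mettl21a, a lysine methyltransferase of chaperones, on chr1:64616091-64616418, with a width of 327 bp and a fold of 3.63 in the Standard list. Chn1, a Rac-specific GTPase-activating protein of neurons, followed with 823 bp and 3.34, and Kdm5b, a demethylase of H3K4, with 208 bp and 2.86. Among those of the ELS list were Gm23953 with the highest fold, 2.36, Noct, a circadian phosphatase, with 2.25 on chr3:51240943-51241322, and Elac2, a tRNA-processing nuclease, with 2.11. Chn1 and Kdm5b had other promoter peaks in the ELS list, so the genes themselves were in both.

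Where a promoter peak of each list matched a single promoter peak of the other, the ELS peak was usually the narrower. In 3595 such pairs the median width was 620 bp in the Standard and 455 bp in the ELS list, the median ratio was 0.848, and the ELS peak was narrower in 77.9%. The 43845 matched pairs of other classes gave 0.821 and 76.6%. The narrower ELS peaks bear on the class itself, since the class is set by the midpoint. Of the ELS promoter peaks, 2011 (26.8%) overlapped the Standard list only at peaks outside the class, and the 1820 Standard peaks they met had a median width of 2616 bp, with 61.4% over 2 kb. The same was true of 724 Standard promoter peaks (8.43%), whose 897 ELS partners had a median width of 673 bp.

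In genes, the Standard list had a promoter peak at 6537 and the ELS list at 5854. They shared 4600, which are 70.4% of the Standard and 78.6% of the ELS genes. Another 1937 were named in the Standard list only and 1254 in the ELS list only. Of the 1254 ELS genes, 1046 (83.4%) had a promoter peak that overlapped a Standard peak, and those partners had a median width of 2642 bp against 510 bp for the ELS peaks. For the 1937 Standard genes the number was 436 (22.5%), with medians of 746.5 bp for the partners and 334 bp for the Standard peaks. Genes with no peak of any class in the other list numbered 542 of the 1937 Standard and 98 of the 1254 ELS genes. With peaks of any class counted, the Standard list named 12323 genes and the ELS list 11279. The part of those absent from the other list was not counted, so these numbers are not read as a trait of promoter-peak genes.

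The genes of DOT1L and of its partners show both sides of this. As a background for the gene lists, 36.2% of the autosomal protein-coding genes that passed the RNA filter had a Standard promoter peak and 33.0% an ELS one. A list of 30 genes covered DOT1L, its complexes, the elongation factors they act with and the demethylase Kdm2b. Of these 30, 15 had a promoter peak in the Standard list, and the ELS list held the same 15 and 5 more: Kdm2b, Mllt1, Supt16, Ctr9 and Leo1. Mllt1 (ENL), which reads acetylated histones and recruits DOT1L, had an ELS promoter peak on chr17:56934192-56935421, 1229 bp wide with a fold of 3.27, whose first bases are the capitals of the sequence above. It lay inside a Standard peak of 4894 bp with a fold of 3.66, which is classed 1 to 3 kb from the start because its midpoint is farther in. The ELS peak of Supt16, a subunit of the histone chaperone FACT, was 433 bp and lay inside a Standard peak of 5338 bp. The peaks of Ctr9 and Leo1, subunits of the PAF1 elongation complex, were 536 and 1478 bp and overlapped Standard peaks of 1991 and 1704 bp. Both ELS promoter peaks of Kdm2b, an H3K36 demethylase, 337 and 280 bp wide, lay inside 1 Standard peak of 1695 bp. All 5 genes were thus marked in both lists.

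Dot1l had 4 promoter peaks in the Standard and 5 in the ELS list, several at internal starts. Its ELS peak near the 5′ end spanned chr10:80755296-80757401, 2105 bp centred 885 bp after the start, with a fold of 3.08. The Standard list had there a peak of 4502 bp with a fold of 3.802, in the class 1 to 3 kb away. Among the 15 genes in both lists, Ccnt1, the cyclin of the elongation kinase P-TEFb, had the highest Standard fold, 2.91, with 2.71 at its highest ELS peak, followed by Kmt2a (2.79 and 2.53), an H3K4 methyltransferase. Ell3, Men1 and Mllt6 had no peak of any class.

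Enzymes that methylate or demethylate histone lysines gave a like pattern, though Kmt2a and Kdm2b are members of both gene lists. Of 36 genes, 20 had a Standard and 26 an ELS promoter peak, with 18 in both. Kdm5a, a demethylase of H3K4, had the highest fold, 3.27 in the Standard and 2.90 in the ELS list. Of the 8 genes in the ELS list only, Kmt2b, Kmt2d, Setd1a, Ezh1, Kdm6b and Kdm2b had promoter peaks overlapping a Standard peak of another class, for instance 314 bp inside 5251 bp at Ezh1. Suv39h2 and Setdb1, methyltransferases of H3K9, had ELS peaks of 181 and 250 bp that overlapped none.

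Some of the markers that both types of medium spiny neuron share had promoter peaks, and no marker of either type alone did. None of the 7 D2-type and none of the 8 D1-type marker genes had a promoter peak in either list. Peaks of any class were at 3 of the D2-type genes in the Standard and 2 in the ELS list. For the D1-type genes the counts were 2 and 1. Grik3, of the D2-type list, had 61 and 41 such peaks, and Ptprm had 30 and 17. Drd2, the D2 dopamine receptor, and Penk, the enkephalin precursor, had no peak of any class, although their RNA was present in Standard GFP at 29.5, 86.8 and 240 CPM (lowest, median and highest library) and at 26.1, 194 and 463 CPM. Of the 15 markers shared by both types, 9 had a Standard and 6 an ELS promoter peak, and 6 had one in neither list. The background was 36.2% and 33.0% of the autosomal protein-coding genes that passed the RNA filter. The 6 in the ELS list were all among the 9. RNA levels differed between these lists: the median over the members that passed the filter was 75.003 CPM in Standard GFP for the shared markers, 112 CPM for the D2-type and 8.82 CPM for the D1-type. Pde10a, a phosphodiesterase of medium spiny neurons, had its widest Standard promoter peak on chr17:8891182-8896252, 5070 bp with a fold of 2.40, and 2 ELS promoter peaks of 361 and 1876 bp inside it. Ppp1r1b (DARPP-32) had 4 Standard promoter peaks of 178 to 643 bp with folds of 1.67 to 1.99, and none in the ELS list. Gng7, a G protein subunit, and Scn4b, a sodium channel subunit, also had a promoter peak in the Standard list only. These genes had ELS peaks of other classes, 1 at Ppp1r1b, 30 at Gng7 and 2 at Scn4b. The Standard list had 4, 25 and 5 peaks of any class there.

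The transcription factors of the striatum gave 11 of 22 in the Standard and 7 of 22 in the ELS list. Foxo1 had the highest fold (2.83 and 2.29), followed by Meis2 (2.50 and 2.13), and Bcl11b (CTIP2) had 1 promoter peak in each list, of 365 and 273 bp. Of 15 pan-neuronal genes, 8 and 6 had a promoter peak, among them Nrxn3, which encodes a presynaptic adhesion molecule, and Slc32a1, the vesicular GABA transporter. Of 24 glutamate receptor genes the counts were 9 and 6.

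Markers of glia and vessels had almost none. The single gene with a promoter peak among 14 astrocyte, 15 oligodendrocyte, 7 oligodendrocyte precursor, 12 microglia and 12 endothelial and pericyte genes was Glul, glutamine synthetase, which was in both lists with a median of 156 CPM in Standard GFP. RNA of these lists was present at uneven levels. The Standard GFP median over the members that passed the filter was 61.5 CPM for 11 astrocyte genes, 36.3 CPM for 11 microglia genes, 16.2 CPM for 5 precursor genes, 12.6 CPM for 15 oligodendrocyte genes and 8.92 CPM for 11 endothelial and pericyte genes, against 10.5 CPM for the autosomal protein-coding genes that passed. Among the higher genes without a promoter peak were Slc1a2, the glial glutamate transporter, with 1387 CPM and Csf1r, a receptor of microglia, with 137 CPM. In the Standard list, peaks of any class were at 3 astrocyte, 2 oligodendrocyte, 0 precursor, 2 microglia and 0 endothelial and pericyte genes. The ELS list gave 3, 2, 1, 2 and 0 in the same order. Slc4a4 had 114 Standard and 98 ELS peaks, Mbp 28 and 18, and Slc1a2 7 and 3. In a tissue punch, fewer cells of a type and less of the mark per cell cannot be told apart.

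Housekeeping and stress-related groups differed among themselves. Of 75 cytosolic ribosomal protein genes, 44 had a Standard and 30 an ELS promoter peak, 26 in both, whereas for 31 proteasome genes the counts were 19 and 20. Of 26 genes of RNA polymerase II and general transcription factors, 11 and 10 had one, with the highest fold at Gtf2h1, a TFIIH subunit (3.63 and 2.90). Of 12 glucocorticoid response genes, 6 and 5 had one, including both corticosteroid receptors, Nr3c1 and Nr3c2, and the clock gene Per1 (2.72 and 2.25). Fkbp5, a co-chaperone of the glucocorticoid receptor, had a promoter peak in the Standard list only. Its peaks of any class numbered 23 in the Standard and 25 in the ELS list. Of 16 immediate early genes, Arc, Dusp1 and Homer1 had a Standard promoter peak and Homer1 alone an ELS one. Arc had 1 ELS peak of another class and Dusp1 had 0. Fos, Fosb, Junb and Egr1 had no peak of any class. None of 21 HOX genes and none of 1106 olfactory receptor genes, which are typically silent in the forebrain, had any peak.

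**Figure D3:**
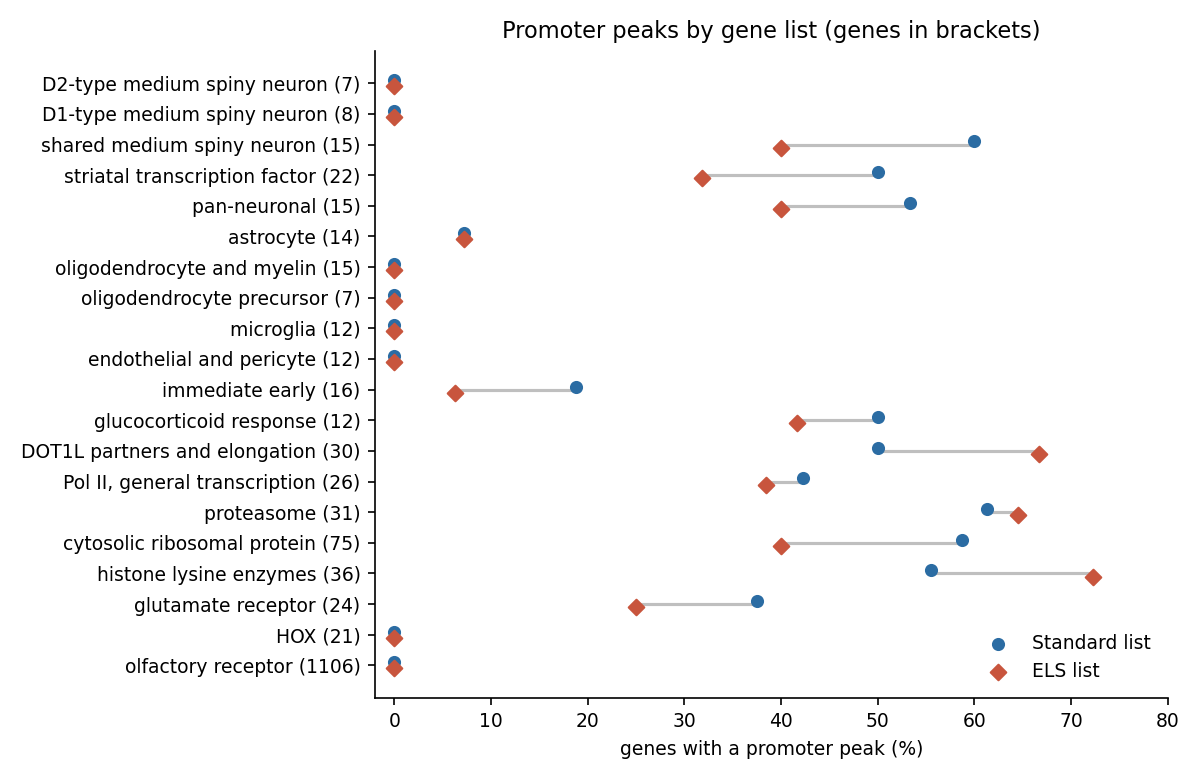
Percentage of the genes in each list that have an H3K79me2 promoter peak, as circles for the Standard and diamonds for the ELS list, with the number of genes in brackets; a grey line joins the 2 values. Glial, vascular, D1-type, D2-type, HOX and olfactory receptor lists sit at or near 0, and the DOT1L partners and histone lysine enzymes are higher in the ELS list.

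The X chromosome was nearly without promoter peaks. It held 5 in the Standard and 1 in the ELS list, which is 0.518 and 0.104 per 100 protein-coding genes, while the autosomes held 26.3 to 64.9 and 23.1 to 58.9. RNA levels were close by median: the 414 X-linked protein-coding genes that passed the RNA filter had a median of 10.1 CPM in Standard GFP, against 10.5 CPM for the 12052 autosomal ones. Of these, 1.21% on the X had a Standard promoter peak and 8.45% a peak of any class, against 36.2% and 65.2% on the autosomes. Kdm5c, a demethylase that escapes X inactivation in females, had the promoter peak present in both lists, and the ribosomal protein gene Rpl10 had one in the Standard list. How X-linked sequence was treated before and during peak calling is not stated in the labels or files.

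Genes with a promoter peak were expressed at higher levels than genes without any peak, and those in both lists at the highest. CPM is not divided by gene length, since exon lengths were not used here. In protein-coding genes, the median CPM of a class was taken in each library. Genes with a promoter peak in both lists (n = 3515) had 10.5, 16.4 and 17.8 CPM in the lowest, median and highest of the 8 Standard GFP libraries, those in the ELS list only (n = 796) 8.73, 15.2 and 16.3, and those in the Standard list only (n = 1238) 6.99, 12.4 and 13.2. Genes with a peak elsewhere only (n = 3146) had 8.73, 12.6 and 13.2 CPM, and genes with no peak (n = 12183) had 0, 0 and 0.236. The ELS GFP libraries gave library medians of 16.02, 14.5, 12.04, 12.6 and 0.318 CPM in the same order of classes. In all 8 libraries of each group the class in both lists was above the ELS-only class, which was above the Standard-only class, and in none was the Standard-only class above the genes with a peak elsewhere. The lowest value of every class with a peak in Standard GFP was from replicate 5, a library of 0.546 M counts. Of the protein-coding genes with no peak, 37.6% passed the RNA filter, against 92.6% of those in both lists. Among all genes that passed, the difference was smaller. The Standard GFP medians were 18.0 CPM for both lists, 14.4 CPM for a peak elsewhere and 3.88 CPM for no peak.

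**Figure D4:**
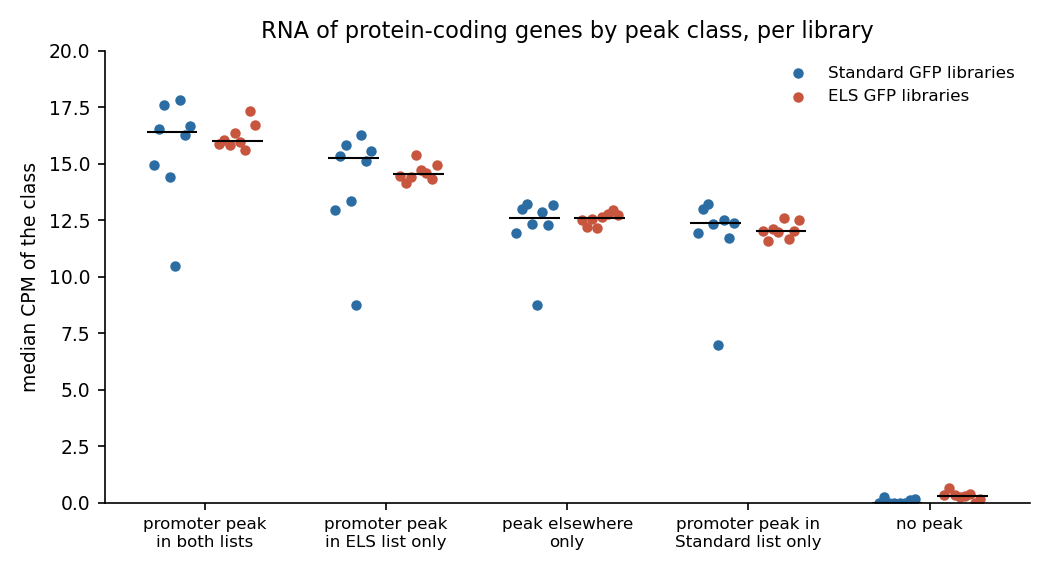
Median CPM of the protein-coding genes of each peak class in every Standard GFP and ELS GFP library (1 point per library, 8 per group), with the median of the libraries as a black line. Genes with a promoter peak in both lists are highest in each library (median 16.4 and 16.02 CPM), and genes with no peak lie at 0 to 0.642 CPM.

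RNA levels were also compared within quartiles of gene span. Protein-coding genes were divided into quartiles by the length of the gene from start to end. Genes with a Standard promoter peak were set against all others of the quartile. Those others include genes with no peak, with a peak elsewhere or with a promoter peak in the ELS list only. Within each quartile the genes with a Standard promoter peak had the higher median CPM in Standard GFP. The values were 3.88 against 0 in the shortest quartile, 7.19 against 0.847, 14.5 against 2.74, and 47.5 against 14.8 in the longest. The share of genes with a promoter peak itself went from 9.67% in the shortest to 32.03% in the longest quartile.

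Across the range of RNA levels, the share of genes with a promoter peak went from 0.809% in the lowest of 10 equal groups of protein-coding genes by mean CPM to 51.7% in the highest for the Standard list with Standard GFP RNA, and from 1.46% to 46.8% for the ELS list with ELS GFP RNA. Among genes that had a promoter peak, level was only weakly related to the strongest peak: across genes, which are not independent replicates, Spearman's rho was 0.091 with fold and 0.097 with width in the Standard list, and 0.094 and 0.082 in the ELS list. A further 2346 protein-coding genes were listed at 0 in all 32 libraries, and of these 9.12% and 8.31% had a promoter peak. They include Rpl13, a ribosomal protein, and Srf, Hif1a and Spg7, genes in wide use among cells, so a listed 0 is not taken here as absence of RNA.

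**Figure D5:**
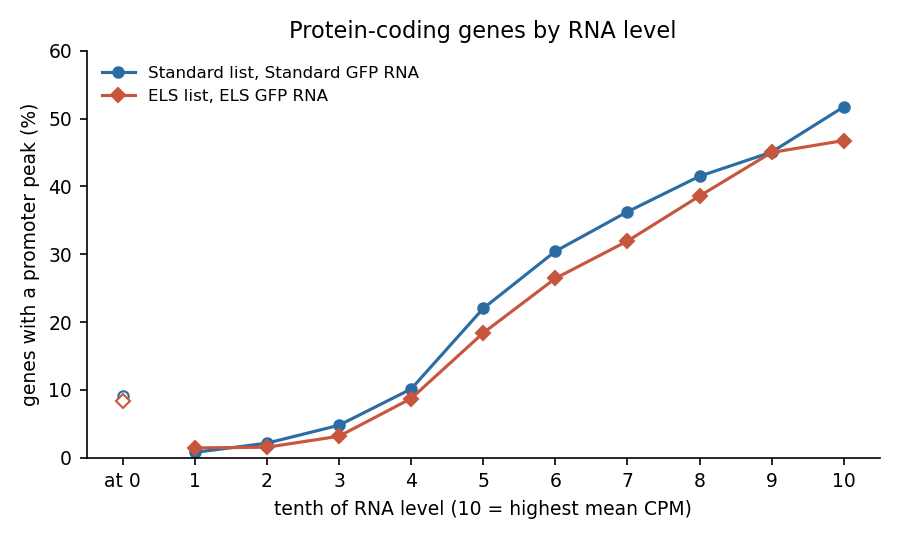
Percentage of protein-coding genes with an H3K79me2 promoter peak in 10 equal groups by mean CPM, for the Standard list with Standard GFP RNA (circles) and the ELS list with ELS GFP RNA (diamonds). Open symbols at the left are the 2346 genes listed at 0 in all 32 libraries; the filled points go from 0.809% to 51.7% and from 1.46% to 46.8%.

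High counts without a promoter peak were also listed. The highest levels without any peak were those of CT010467.1, Il31ra and Gm19951 together with mt-Rnr2 and mt-Rnr1, which are ribosomal RNAs of mitochondria, and with a peak elsewhere those of Lars2, Gphn, Tmtc2, Gm26561 and Peak1. Lars2, a mitochondrial tRNA synthetase gene, had a mean of 41999 ± 20410 CPM (SD, n = 8) in Standard GFP. Gphn, the postsynaptic scaffold gephyrin, had 15149 ± 7356 CPM and 93 Standard peaks, none of them in the promoter class. The Standard GFP libraries ranged from 8143 to 58841 CPM for Il31ra and from 14767 to 75797 CPM for Lars2. The source of these reads was not tested, so the values are not taken here as RNA of the named genes.

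Dot1l RNA did not follow the labels in a way the test could call. It was 33.8 ± 10.8 CPM (SD, n = 8) in Standard GFP and 42.9 ± 18.99 in the libraries labelled Dot1l overexpression, and the ranges overlapped, 10.5 to 48.3 and 25.2 to 74.7 CPM. The log2 fold change was 0.33 ± 0.27 (SE; edgeR quasi-likelihood test, Benjamini-Hochberg adjusted p = 0.741). In the libraries labelled Dot1l knockdown it was 42.9 ± 15.2 CPM, against 35.5 ± 11.4 in ELS GFP, a log2 fold change of 0.28 ± 0.27 (edgeR adjusted p = 0.985), which is not the direction of the label. Counts of RNA do not show the DOT1L protein or the mark, which was not measured in these groups. The 32 RNA libraries held 0.314 to 11.1 M counts, with 3 of the Standard GFP and 1 of the ELS Dot1l knockdown libraries under 1 M.

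Of the 7791 genes with a promoter peak in either list, 7774 were in the RNA table and 5299 passed the filter on low counts. Their RNA between ELS GFP and Standard GFP was tested with edgeR over all 14016 genes, and none was called at an adjusted p under 0.05, where 0.0% of all genes tested were called. The smallest adjusted p was 0.120. At an unadjusted p under 0.05, 156 of the promoter-peak genes (2.94%) had a higher and 457 (8.62%) a lower value in ELS GFP, beside 4.0% and 7.73% of all genes tested. Their median log2 fold change was -0.06, against -0.01 over all genes tested, -0.04 over genes with a peak elsewhere only and 0.09 over genes with no peak. Of the genes with a peak elsewhere only, 3.51% were higher and 8.18% lower at that p, so the direction was not particular to promoter peaks. Genes in both lists, in the Standard list only and in the ELS list only each had a median of -0.06. DESeq2 called 29 of these 5299 genes, 28 of them lower in ELS GFP, and 88 of all 14016 (0.628%), after replacing outlying counts in 794 genes. Without the 4 libraries under 1 M counts edgeR called 1 of 5390 promoter-peak genes, lower in ELS GFP, and 7 of all 15149 (0.0462%). Directions were not counted over all the genes called, so the excess of lower calls is not read as a trait of promoter-peak genes.

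Among the genes with the smallest p values, those with higher values in ELS GFP had most of their group's CPM in 1 library, 65.5% to 81.7% for the 4 genes named, whereas for the 4 with lower values the share in the top Standard GFP library was 22.1% to 52.4%. Timm17a, a subunit of the mitochondrial import channel with a promoter peak in both lists, had 9.41, 10.96 and 403 CPM in ELS GFP (lowest, median and highest library) and 3.49, 8.67 and 14.9 in Standard GFP (log2 fold change 2.70 ± 0.63, edgeR adjusted p = 0.120). Rrs1, a ribosome assembly factor in the ELS list only, had 1.35, 4.32 and 93.8 CPM against 0, 2.31 and 3.404 (2.70 ± 0.71, edgeR adjusted p = 0.120). In both genes, and in Lmna (lamin A/C) and Sra1, the high library was ELS GFP replicate 2, and the ranges of the groups overlapped. On the other side, Snx25, a sorting nexin in the Standard list only, had 16.8, 26.3 and 34.5 CPM in ELS GFP against 30.4, 35.2 and 223 in Standard GFP (-1.33 ± 0.31, edgeR adjusted p = 0.120). Dek, a chromatin protein also in the Standard list only, had 34.5, 42.1 and 44.9 CPM against 40.6, 57.9 and 145 (-0.99 ± 0.24, edgeR adjusted p = 0.120). All 8 ELS GFP libraries were below the Standard GFP median for both genes, the ranges overlapped, and the highest Standard GFP library was replicate 6. Pdik1l, a kinase, and Nifk, a nucleolar protein, had the smallest p values of the lower set, with log2 fold changes of -3.21 and -2.95. Pdik1l had 0, 2.66 and 6.55 CPM in ELS GFP against 0.612, 6.89 and 114 in Standard GFP. Nifk had 1.09, 5.23 and 9.48 CPM against 4.73, 8.215 and 147. For both genes the ranges overlapped, and the log2 ratios of the group medians were -1.37 and -0.65.

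Genes with a promoter peak in 1 list had like shares below 0 whichever list it was: 58.1% of 1172 genes in the Standard list only and 57.3% of 762 in the ELS list only had a lower value in ELS GFP, beside 56.5% of those in both, 54.3% of those with a peak elsewhere only and 51.2% of all genes tested. Among those in the Standard list only, the smallest p values belonged to Lmna, Klhl21 and Cox7c with higher and to Snx25, Dek and Akap8 with lower values in ELS GFP. Among those in the ELS list only they belonged to Rrs1, Lmnb1 and Bdh1 with higher values, and Nifk and Stpg1 were among those with lower values. Klhl21 shows how far 1 library reached: it had 0, 1.64 and 287 CPM in ELS GFP and 0.794, 1.90 and 5.39 in Standard GFP, and its fitted log2 fold change of 3.85 became -0.71 without the 4 libraries that held most of the outlying values.

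No gene of the lists above was called in any of the 3 comparisons. Of the 28 genes for DOT1L, its partners, elongation factors and Kdm2b that passed the filter, 2 had a higher and 2 a lower value in ELS GFP at an unadjusted p under 0.05, and the 20 with a promoter peak had a median log2 fold change of -0.06. Of the 15 shared markers of medium spiny neurons, 0 were higher and 3 lower, and 7 of the 9 with a promoter peak had a log2 fold change below 0, with a median of -0.63, where 57.0% of all promoter-peak genes and 51.2% of all genes tested were below 0. The D1-type markers, none with a promoter peak, had a median of -0.83 and the D2-type markers -0.19. Lists of other cell types, most of them without promoter peaks, also had medians below 0, apart from that of vessels: the median was -0.50 for the astrocyte list (4 lower and 0 higher of 11 at an unadjusted p under 0.05), -0.44 for oligodendrocytes (3 lower and 1 higher of 15), -0.59 for their precursors (1 and 0 of 5) and -0.40 for microglia (2 and 0 of 11), and 0.22 for endothelial cells and pericytes (0 and 1 of 11). The part of these cell types in the result was not tested. Pde10a had 268, 329 and 479 CPM in ELS GFP against 318, 460 and 1012 in Standard GFP (-0.63 ± 0.29, edgeR adjusted p = 0.366), and the ranges overlapped. Of the 45 ribosomal protein genes with a promoter peak that passed the filter, 30 were above 0 and 15 below, with a median of 0.18, where the median of all promoter-peak genes was -0.06 and 57.0% of them were below 0. In tissue RNA, fewer cells of a type and less RNA per cell cannot be told apart.

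The same genes gave no call in the other comparisons. For the libraries labelled Dot1l overexpression against Standard GFP, edgeR called none of the 5299 genes and 0.0% of all, with a smallest adjusted p of 0.137. At an unadjusted p under 0.05, 217 (4.10%) were higher and 379 (7.15%) lower, beside 4.59% and 6.28% of all genes tested, and the median log2 fold change was -0.02 against 0.02. Genes with a peak elsewhere only had a median of -0.03, with 3.94% higher and 6.89% lower. DESeq2 called 14 of the 5299, all lower, and 42 of all 14016 (0.3%), and edgeR without the libraries under 1 M counts called 5 of 5390, all lower, and 18 of all 15149 (0.119%). Here too, directions were not counted over all the genes called. Ddr1, a collagen receptor kinase, had 12.7, 15.2 and 21.6 CPM in the libraries labelled overexpression against 16.8, 26.1 and 140 in Standard GFP (-1.39 ± 0.32, edgeR adjusted p = 0.137). All 8 were below the Standard GFP median, the ranges overlapped, and the highest Standard GFP library was again replicate 6. Glrx3, a glutaredoxin, had 8.11, 13.9 and 50.8 CPM against 1.75, 8.59 and 11.9 (1.17 ± 0.32, edgeR adjusted p = 0.145), with 7 of 8 above the Standard GFP median.

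For the libraries labelled Dot1l knockdown against ELS GFP, edgeR again called none of the 5299 genes and 0.0% of all. At an unadjusted p under 0.05, 101 (1.91%) were higher and 156 (2.94%) lower, beside 2.23% and 3.95% of all genes tested, and the smallest adjusted p among the promoter-peak genes was 0.316. DESeq2 called 1 of the 5299 genes, lower, and 2 of all 14016 (0.0143%). Bdh1, an enzyme of ketone body use with a promoter peak in the ELS list only, had 4.56, 11.7 and 13.9 CPM in the libraries labelled knockdown against 12.4, 16.3 and 176 in ELS GFP (-1.84 ± 0.43, edgeR adjusted p = 0.316). Rrs1 had 0.233, 1.51 and 4.06 CPM against 1.35, 4.32 and 93.8 (-2.96 ± 0.70, edgeR adjusted p = 0.316). This comparison and that of ELS GFP with Standard GFP share the ELS GFP libraries, and the highest of them was replicate 2 in both genes.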

How the data were processed

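Male mouse nucleus accumbens was profiled by H3K79me2 chromatin immunoprecipitation and RNA sequencing, with groups taken from the labels. The authors deposited 1 annotated peak list per rearing. Its lines give, per the file headers, an interval, a fold enrichment (a ratio, the authors' own value, whose control is not named there), a q-value and, per transcript, a region class and a distance. How replicates entered the peak calls is not stated in the labels or files. For RNA the authors deposited counts by Ensembl gene, without normalization. Per the submitters' processing notes, FastQC, HISAT2, featureCounts, DESeq2 and the build mm10 were used, without roles or versions. Use of strand in counting is not given, so a gene and an antisense partner cannot be told apart, and copies such as pseudogenes of ribosomal protein genes can share reads.

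Lines were collapsed to distinct intervals, and overlaps of at least 1 bp were found with bedtools 2.31.1. Intervals are printed as listed. Region classes were checked against the distances. Gene lists were matched by Ensembl ID (52403 of 52636 IDs had symbols), and gene 5′ ends and promoter sequences came from RefSeq GRCm38.p6, matched by symbol. RNA was fitted once for all 32 libraries with edgeR 4.0.16 (TMM, filterByExpr, quasi-likelihood test, 28 residual degrees of freedom, Benjamini-Hochberg over 14016 genes), after a test on simulated data. The 8 samples of a group are taken as separate animals, which the labels do not state, so p-values measure the spread between samples. Levels were meant to be per kb of exon, but exon lengths were not used, so CPM stands. Alternatives were DESeq2 1.42.0, limma 3.58.1 with voom, other factors, filters and libraries, and for peaks stricter q-values, folds and overlaps. The members, gene lists and tests were chosen with earlier results of these data known. Genes were named by rank of fold, width or p, or from fixed lists; some are not reported here, and they are left out of the checks for outlying libraries. The Promoter1k rule needs no measured value.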

Additional observations from a re-analysis of the deposited data

Results flagged for a closer look

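Single libraries stood far from the other 7 of their group in 31 of 66 checks over the named genes and class medians (46.97%). Chance gives about 1 in 20 for groups that were not chosen by their values, whereas most of these genes were named for a small p in the same libraries, so that rate is no measure for them. The gap to the nearest library, as a share of the group's range, was above Dixon's 95% critical value for 8 samples.

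ELS GFP replicate 2, a library of 1.76 M counts, was the highest of its group for 10 genes with a promoter peak: Timm17a with 402.7 CPM, Klhl21 with 287.1, Lmnb1 with 267.8, Slc25a39 with 197.8, Lmna with 177.9, Cox7c with 176.6, Bdh1 with 176.0, Sra1 with 163.1, Gm17276 with 111.1 and Rrs1 with 93.77 CPM. The medians of the group for these genes were 1.49 to 16.3 CPM. Standard GFP replicate 6 was the highest for 6 genes: Akap8 with 297.4 CPM, Snx25 with 222.8, D3Ertd751e with 207.2, Ddr1 with 139.8, Tsr3 with 122 and Stpg1 with 82.97 CPM.

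Standard Dot1l overexpression replicate 1 was the highest for Dhx33 with 237.3 CPM, Gm12258 with 90.48, Sec61g with 73.27 and Glrx3 with 50.79 CPM. ELS Dot1l knockdown replicate 7, a library of 0.462 M counts, was the highest for Eif3h with 446.6 CPM, Cyhr1 with 416.4, 4921531C22Rik with 214.3 and Pdia5 with 84.5 CPM. What sets these 4 libraries apart was not tested. Sec61g in Standard GFP replicate 4 (6.169 CPM), Klhl21 in Standard GFP replicate 7 (5.388 CPM) and D3Ertd751e in Standard Dot1l overexpression replicate 8 (12.9 CPM) were also far above the rest of their group.

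Standard GFP replicate 5, a library of 0.546 M counts, had the lowest class medians of Standard GFP: 10.48 CPM for genes with a promoter peak in both lists, 8.734 CPM for the ELS list only, 6.987 CPM for the Standard list only and 8.734 CPM for a peak elsewhere. The order of the promoter classes in that library was as in the other 7.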

How the results depend on the processing

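The 2 lists hold 1 peak set each, so nothing shows how the counts, widths and overlaps would vary between animals. No paired analysis was possible because the replicate numbers only order the samples within a group and the peak lists carry none. With q-values of at most 0.001, the median width of promoter peaks was 570.5 bp (Standard) and 535 bp (ELS) and the median fold 2.04 and 2.02. With both lists limited to peaks at or above their common median fold, there were 4951 and 3970 promoter peaks with median widths of 780 and 737 bp, median folds of 2.21 and 2.16 and overlaps of 57.7% and 93.4%, and 3680 ELS genes with 2619 in both lists. The overlap was 44.4% and 86.9% when 50% of the promoter peak had to be covered, 41.1% and 47.7% when 50% of both peaks had to be, and 54.6% and 66.0% when the partner had to be a promoter peak, so the size of the difference between the lists depends on this choice while its direction held. Of the 1937 and 1254 genes with a promoter peak in 1 list only, 542 and 98 had no peak of any class in the other list. With the midpoint within 1 kb of the gene's RefSeq 5′ end, an alternative added after seeing the data, there were 3236 and 2971 peaks, overlaps of 66.0% and 89.4% with the other list limited in the same way (67.5% and 94.5% with the whole of it), median folds of 2.04 and 1.99, and 3613 and 3342 genes, 2380 in both lists and 1233 in the Standard list only.

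The median RNA level of genes with a promoter peak was 17.0 CPM (Standard list, Standard GFP) and 17.4 CPM (ELS list, ELS GFP) among genes that passed the filter, and 15.2 and 15.7 CPM among protein-coding genes (added after seeing the data). DESeq2 called 29, 14 and 1 of the promoter-peak genes in the ELS, overexpression and knockdown comparisons, and edgeR without libraries under 1 M counts called 1, 5 and 0, whereas limma, edgeR with relative log expression factors, without a filter, with the 16 libraries compared or without the 4 outlying libraries called 0. Fitted directions turned for 5 named genes, none of them called. The log2 fold change of 4921531C22Rik was -0.46 with DESeq2, -0.31 without libraries under 1 M counts and -0.18 without the 4 libraries, that of Cyhr1 was -0.012 with DESeq2 and that of Gm17276 0.023 with limma. Klhl21 was at -0.66 with DESeq2, -0.52 with limma and -0.71 without the 4 libraries, and Cox7c at -0.13 without them. The causes were not tested.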
